A study of Rattus norvegicus with 6 samples.

Results

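The genes described here are the guanylate-binding protein (GBP) and immunity-related GTPase (IRG) genes that the 6 deposited count tables list under the names Gbp1, Gbp2, Gbp4, Gbp5, Gbp7, Igtp and Irgm. They are 7 of the 18077 rows of each table. They were chosen by gene name, and where a name stood on more than one row, the row with the highest mean count was used, which applied to Gbp1. Other GBP and IRG genes with a row are given as a separate list further on.

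GBPs are large GTPases of the dynamin superfamily, and IRGs are smaller GTPases that act beside them. Interferons induce both through transcription factors that bind short promoter motifs named ISRE (interferon-stimulated response element) and GAS (gamma-activated site). The proteins are best known for gathering on bacteria and on the vacuoles that hold intracellular pathogens, where they help to break the membrane and to start caspase signalling, and they can be induced in many cell types besides immune cells.

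The libraries are polyA RNA-seq of cultures labelled as neonatal rat cardiomyocytes, prepared from pups of 1 to 3 days. In the Ad-RNF128 group (n = 3) the cells had received an adenovirus vector for RNF128, a ubiquitin ligase, and in the Ad-GFP group (n = 3) a vector for green fluorescent protein, which the labels class as WT. Every culture of both groups was also given 500 µM palmitic acid for 24 h and was harvested after 48 h. All cultures thus carried a vector and the fatty acid, and no uninfected or palmitate-free culture was analysed here. The labels do not say whether the replicates came from separate animals or preparations, so the p-values speak for these samples alone, and their spread could be technical.

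The library totals were 17099149, 21708973 and 19253718 counts in Ad-RNF128 and 16352843, 18053154 and 21332585 counts in Ad-GFP. Ad-GFP replicate 1 stood apart from the other 5 libraries: 3551 genes had no read in it, against 1190 to 2288 in the others, and its TMM scaling factor (edgeR's correction of the library total for composition) was 0.47 against 1.08 to 1.22. The members' results are therefore given for all 6 libraries and again without that library; both comparisons use the same Ad-RNF128 libraries and share Ad-GFP replicates 2 and 3. The row named Rnf128 held 1, 3 and 1 counts in the libraries labelled Ad-RNF128 and 0, 2 and 1 counts in those labelled Ad-GFP, so it did not separate the groups. The row named Rnf157, another ubiquitin ligase and singled out here after its values were seen, held 1923, 2553 and 2090 CPM (the count divided by the library total and multiplied by 1000000) in Ad-RNF128 against 22.3, 39.6 and 40.4 CPM in Ad-GFP. The data also went against the cell type in the labels. The cardiomyocyte markers, of which 13 of 14 had a row, summed to 128.0 to 234.7 CPM in Ad-RNF128 and to 237.3, 688.7 and 681.1 CPM in Ad-GFP. The 10 fibroblast markers summed to 10806 to 11743 CPM in Ad-RNF128 and to 3046, 39009 and 40589 CPM in Ad-GFP. Without Ad-GFP replicate 1, edgeR called 7 of 9 tested fibroblast markers lower (median log2 change -1.08) and 3 of 11 tested cardiomyocyte markers lower, and none higher in either list. Over all genes tested in that fit, 28.0% were called lower and 28.9% higher, so the 3 of 11 lay near the share of all genes. With 6 libraries edgeR called none in either list. The fibroblast median was then -0.91 by TMM and -0.35 scaled by library totals alone. Troponin T gene Tnnt2 was at 57.4, 42.3 and 34.0 CPM in Ad-RNF128 and 13.3, 342 and 350.4 CPM in Ad-GFP, and the heart myosin gene Myh6 at 14.3, 10.8 and 0.104 CPM in Ad-RNF128 and 16.0, 13.4 and 11.1 CPM in Ad-GFP. These marker differences accompany those of the GTPase genes, and their part in them was not tested. The cells are called the cultures below.

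In the RefSeq annotation of the rat genome build GRCr8, the 5 GBP genes stand in one block on chromosome 2, in the order Gbp5, Gbp7, Gbp4, Gbp2 and Gbp1, and both IRG genes lie on chromosome 10. The following stretches upstream of the annotated start sites, from RefSeq (GRCr8), are shown because every one of the 7 genes holds the core of an interferon motif there. The count tables carry no coordinates and were made on the build mRatBN7.2, so the sequences were matched to the genes by symbol, 7 of 7. Capitals mark matches to the ISRE core, GAAANNGAAA or TTTCNNTTTC on the other strand, and to the GAS core, TTCNNNGAA, which is its own reverse complement.
Gbp5 (chr2:233910898-233910977, + strand): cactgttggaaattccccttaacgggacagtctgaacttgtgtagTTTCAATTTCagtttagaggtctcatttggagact
Gbp7 (chr2:233948796-233948882, + strand): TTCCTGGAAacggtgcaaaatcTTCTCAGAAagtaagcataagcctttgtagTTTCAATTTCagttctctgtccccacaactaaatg
Gbp4 (chr2:233978406-233978485, + strand): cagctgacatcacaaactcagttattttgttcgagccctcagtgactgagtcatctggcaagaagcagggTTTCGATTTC
Gbp2 (chr2:234005647-234005726, + strand): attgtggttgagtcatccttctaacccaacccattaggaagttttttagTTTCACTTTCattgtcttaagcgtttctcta
Gbp1 (chr2:234072256-234072335, + strand): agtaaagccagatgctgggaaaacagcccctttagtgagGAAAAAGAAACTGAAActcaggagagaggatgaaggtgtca
Irgm (chr10:33742579-33742658, - strand): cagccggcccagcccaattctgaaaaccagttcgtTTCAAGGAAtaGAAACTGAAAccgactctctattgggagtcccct
Igtp (chr10:42874899-42874978, + strand): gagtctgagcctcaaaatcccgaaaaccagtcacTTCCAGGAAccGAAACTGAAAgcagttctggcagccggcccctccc

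The windows searched were 300 bases long, from 250 bases before to 50 bases after each annotated start. The ISRE core was found in 7 of the 8 member windows and in 7 of 7 member genes, Gbp1 having a second annotated start without a match; 1312 of all 33469 RefSeq windows, or 3.92%, held it. In Gbp5, Gbp7, Gbp4, Gbp2 and Irgm the core began 56, 41, 10, 31 and 34 bases before the start site, and in Igtp 103 bases before it. Gbp1 had the cores farthest from its start, beginning 230, 142 and 136 bases before it, and the last 2 of these overlap each other. Gbp5 and Gbp7 carried the same 10 letters, TTTCAATTTC, and Igtp, Irgm and Gbp1 shared GAAACTGAAA. The GAS core was found in 3 of the 7 genes, Gbp7, Igtp and Irgm, and in 2970 of the 33469 windows, or 8.87%. In both Igtp and Irgm, GAS and ISRE cores stood side by side with 2 bases between them, and the same spacing was found in the RefSeq entry Irgm2, which had no row in the count tables used here. Of the other genes of these families that were searched, Ifi47 held GAS cores but no ISRE core. Gbp6, Irgc, Irgq and Igtpl1 held neither core. A match is a string of letters in these windows and was not measured as a bound site.

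**Figure D1:**
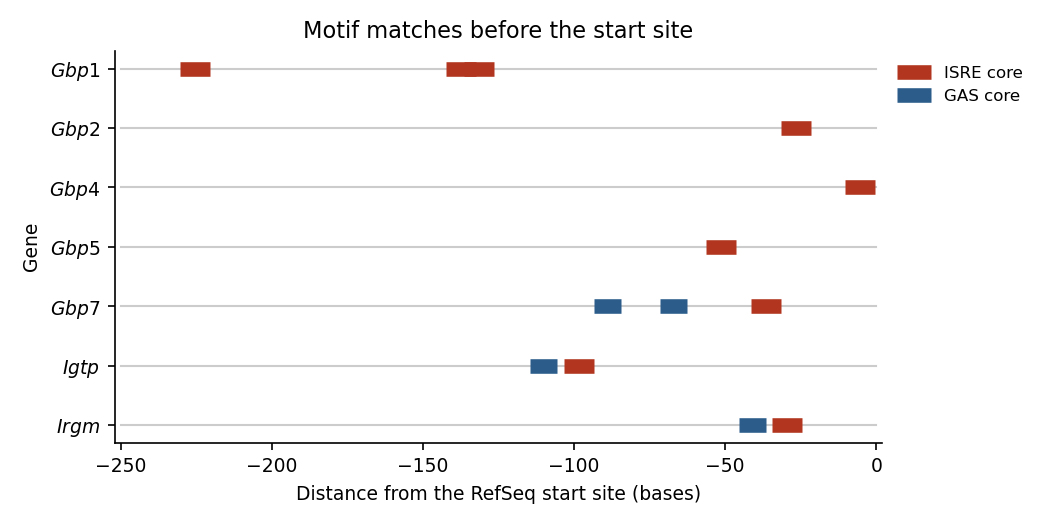
Distance from the annotated start site, in bases, of each ISRE core and GAS core match in the promoter windows of the 7 genes (RefSeq, GRCr8), 1 line per gene. Every gene has at least 1 ISRE core, and the ISRE cores of Gbp5, Gbp7, Gbp4, Gbp2 and Irgm lie nearest the start, beginning 10 to 56 bases before it.

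All 7 genes were higher in every Ad-RNF128 library than in every Ad-GFP library, by 8.30-fold (Irgm) to 207-fold (Gbp4) in mean CPM. Together they took 507.0, 597.8 and 507.0 CPM in Ad-RNF128 against 15.7, 40.0 and 37.5 CPM in Ad-GFP. Of the 12863 genes tested in all 6 libraries, 30.4% showed the same separation, so 7 of 7 is read against that share. A mean CPM at least 10 times higher in Ad-RNF128 was found for 6 of the 7 genes, all but Irgm, against 1.15% of the genes tested. Without Ad-GFP replicate 1, 48.7% of 13173 genes tested separated in this way and 2.2% were at least 10 times higher, among them 6 of the 7 genes, again all but Irgm.

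With all 6 libraries, edgeR's quasi-likelihood test with Benjamini-Hochberg adjustment called none of the 7 genes and no gene at all at an adjusted p of 0.05, a background of 0.0%. All 7 had an unadjusted p under 0.05, as did 742 of the 12863 genes, 432 of them higher in Ad-RNF128. Other analyses of the same 6 libraries called more: DESeq2 called 7 of the 7 higher (1.9% of all genes tested), limma-voom called Gbp4, Gbp7 and Igtp (0.109%), and edgeR scaled by library totals alone called Gbp1, Gbp4 and Gbp7 (0.0622%). Without Ad-GFP replicate 1, all 7 of 7 passed in edgeR as higher, against 28.9% of all genes tested that passed as higher and 28.0% as lower. The members' median log2 change (the fitted change, where 1 is a doubling) was 5.37 with all 6 libraries, against a median of -0.02 over all genes tested, and 6.07 without Ad-GFP replicate 1, against 0.01 over all genes. The exact two-sided permutation test of mean CPM gave p = 0.1 for each of the 7, the smallest p that 3 libraries against 3 allow.

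**Figure D2:**
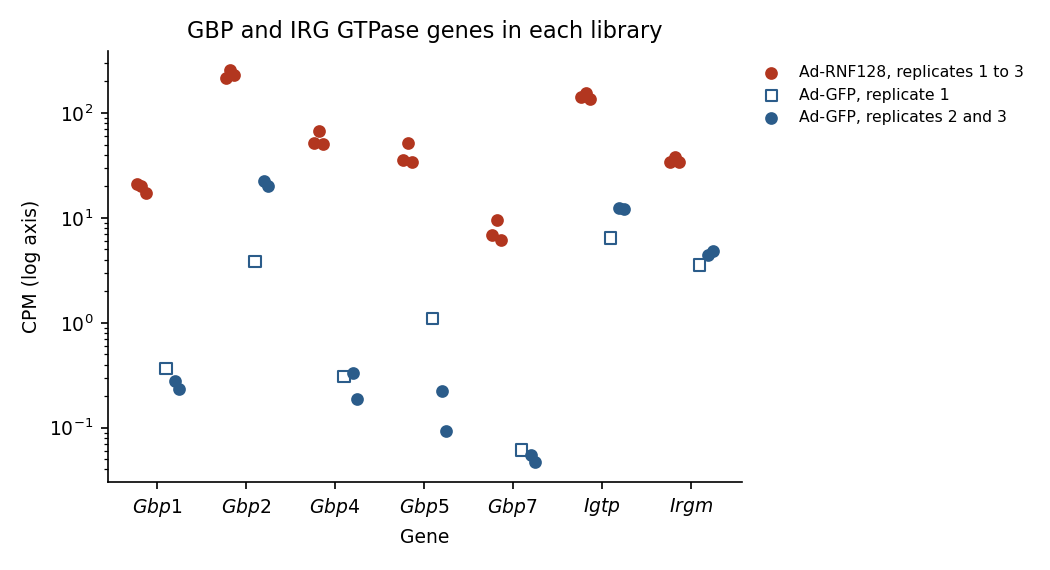
CPM on a log axis in each of the 6 libraries for the 7 genes, with Ad-RNF128 libraries left of Ad-GFP libraries and Ad-GFP replicate 1 marked separately. In every gene the 3 Ad-RNF128 points lie above the 3 Ad-GFP points, and Ad-GFP replicate 1 lies below the other Ad-GFP libraries in Gbp2, Igtp and Irgm.

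Gbp2, a prenylated GBP that restricts Toxoplasma in mice, had 216, 255 and 229 CPM in Ad-RNF128 and 3.85, 22.3 and 20.1 CPM in Ad-GFP (ENSRNOG00000031743). The groups did not overlap, but Ad-GFP replicate 1 held 0.182 times the mean of the other Ad-GFP libraries, and only 63 counts against 403 and 428. Its mean was 233 ± 19.6 CPM in Ad-RNF128 and 15.4 ± 10.1 CPM in Ad-GFP (SD, n = 3 each). The ratio of pooled CPM was 14.6 (95% exact counting interval 13.7 to 15.7) over all libraries and 11.1 (10.4 to 12.0) without Ad-GFP replicate 1; these intervals cover counting error only. In edgeR's fit the log2 change was 3.61 ± 0.49 (SE, adjusted p = 0.137) with 6 libraries and 3.31 ± 0.09 (adjusted p = 6.65e-13) without Ad-GFP replicate 1.

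Gbp1, whose human counterpart starts the coat that forms on Gram-negative bacteria, had 21.2, 20.0 and 17.4 CPM in Ad-RNF128 and 0.367, 0.277 and 0.234 CPM in Ad-GFP (ENSRNOG00000068984). The Ad-GFP values rest on 6, 5 and 5 counts and lie close to each other, Ad-GFP replicate 1 being the highest of them. The ratio of pooled CPM was 67.9 (counting interval 41.6 to 119) with all libraries and 76.7 (41.6 to 160) without Ad-GFP replicate 1. edgeR gave log2 changes of 5.37 ± 0.65 (adjusted p = 0.108) with 6 libraries and 6.07 ± 0.23 (adjusted p = 1.56e-11) without it. A second row with the same identifier held 0, 1 and 3 counts in Ad-RNF128 and 0, 0 and 0 in Ad-GFP and was not used.

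Gbp4, reported in mice to restrain the interferon regulatory factor Irf7, had 52.0, 68.0 and 50.6 CPM in Ad-RNF128 and 0.306, 0.332 and 0.188 CPM in Ad-GFP (ENSRNOG00000028768). All 3 Ad-GFP libraries were low and alike, at 5, 6 and 4 counts. The pooled ratio was 214 (counting interval 129 to 383) with all libraries and 227 (123 to 473) without Ad-GFP replicate 1. The log2 change by edgeR was 7.05 ± 0.67 (adjusted p = 0.073) with 6 libraries and 7.62 ± 0.25 (adjusted p = 3.67e-12) without Ad-GFP replicate 1. Gbp4 ranked 5 of 12863 genes by p in the fit of 6 libraries, behind Gbp7, at rank 4.

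Gbp5, which promotes assembly of the NLRP3 inflammasome and in human cells inhibits the protease furin, had 35.6, 51.7 and 34.3 CPM in Ad-RNF128 and 1.10, 0.222 and 0.0938 CPM in Ad-GFP (ENSRNOG00000032240). It was the member on which the Ad-GFP libraries differed most upward: replicate 1 held 18 counts against 4 and 2, or 6.98 times the mean CPM of the other pair. The size of its change rests on that library, since the pooled ratio was 95.7 (counting interval 64.1 to 150) with all libraries and 270.4 (124 to 738) without Ad-GFP replicate 1. The edgeR log2 change was 5.38 ± 1.33 (adjusted p = 0.334) with 6 libraries, at rank 264 of 12863 by p, and 7.85 ± 0.34 (adjusted p = 7.51e-11) without Ad-GFP replicate 1.

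Gbp7, linked in mice to the NADPH oxidase and to autophagy at pathogen compartments, had 6.90, 9.49 and 6.13 CPM in Ad-RNF128 and 0.0612, 0.0554 and 0.0469 CPM in Ad-GFP (ENSRNOG00000029191). Each Ad-GFP value is a single count, against 118, 206 and 118 counts in Ad-RNF128, so the ratio is poorly bounded from above. It was 141 (counting interval 48.1 to 688) with all libraries and 149.9 (41.3 to 1242) without Ad-GFP replicate 1. The log2 change in edgeR's fit was 6.48 ± 0.58 (adjusted p = 0.073) with 6 libraries and 6.90 ± 0.45 (adjusted p = 7.28e-09) without Ad-GFP replicate 1.

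Igtp, named Irgm3 in mice and one of the IRGs that regulate the loading of the others, had 141, 156 and 135 CPM in Ad-RNF128 and 6.42, 12.4 and 12.1 CPM in Ad-GFP (ENSRNOG00000027008). Its Ad-GFP values rest on 105, 223 and 258 counts, so that the gene was well measured in both groups. The groups were far apart, and Ad-GFP replicate 1 was at 0.525 times the mean of the other Ad-GFP libraries in CPM, before TMM scaling. The pooled ratio was 13.8 (counting interval 12.7 to 15.0) with all libraries and 11.8 (10.8 to 13.0) without Ad-GFP replicate 1. By edgeR the log2 change was 3.30 ± 0.34 (adjusted p = 0.073) with 6 libraries and 3.40 ± 0.09 (adjusted p = 4.53e-13) without Ad-GFP replicate 1.

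Irgm, the counterpart of mouse Irgm1 and also a regulatory IRG, had 34.1, 37.7 and 34.1 CPM in Ad-RNF128 and 3.55, 4.43 and 4.78 CPM in Ad-GFP (ENSRNOG00000031138). It had the smallest ratio of the 7 genes and the least spread within Ad-RNF128, with a coefficient of variation of 5.91%. Its mean was 35.3 ± 2.09 CPM in Ad-RNF128 and 4.25 ± 0.636 CPM in Ad-GFP (SD, n = 3 each), and its pooled ratio was 8.24 (counting interval 7.2 to 9.45) with all libraries. Without Ad-GFP replicate 1 the pooled ratio was 7.67 (6.59 to 8.98). edgeR's log2 change was 2.45 ± 0.41 (adjusted p = 0.170) with 6 libraries and 2.78 ± 0.11 (adjusted p = 2.62e-11) without Ad-GFP replicate 1.

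**Figure D3:**
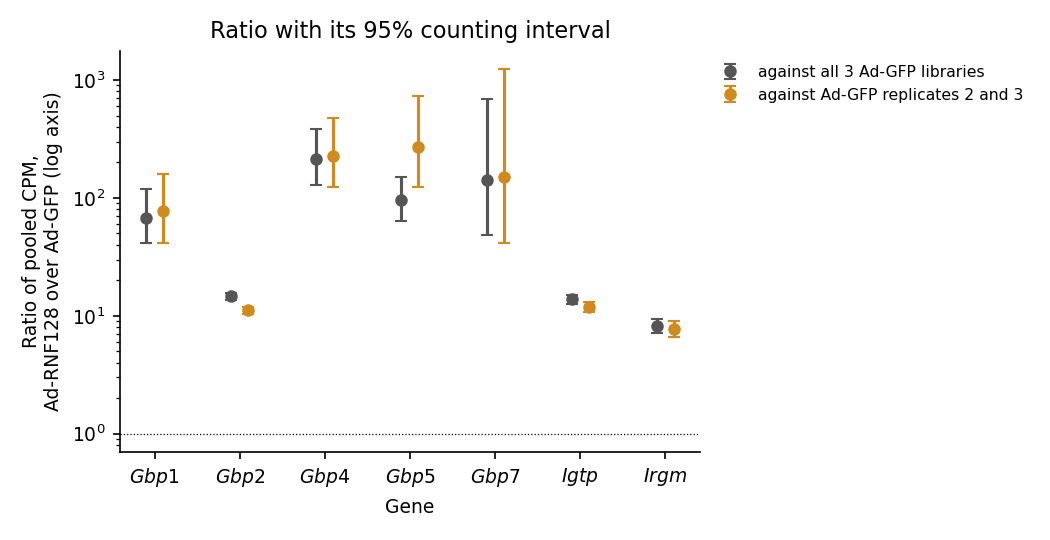
Ratio of pooled CPM, Ad-RNF128 over Ad-GFP, on a log axis for each gene, with 95% exact counting intervals, for all 6 libraries and without Ad-GFP replicate 1. The ratios run from 8.24 (Irgm) to 214 (Gbp4) with all libraries, and Gbp5 is the gene that moves most without Ad-GFP replicate 1, to 270.4.

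The 7 genes did not move in fixed proportion. Gbp2, Igtp and Irgm, which had 58 to 428 counts in each Ad-GFP library, were 8.30 to 15.1 times higher in Ad-RNF128 by mean CPM. Gbp1, Gbp4, Gbp5 and Gbp7, with 1 to 18 counts in each Ad-GFP library, were 66.7 to 207 times higher. The Ad-GFP counts that split the genes here also enter these ratios as denominators. The counting intervals of the pooled ratios with all libraries reached up to 15.7 (Gbp2) in the first set and began at 41.6 (Gbp1) in the second. As a share of the family's counts, the IRG pair made up 34.5, 32.4 and 33.4% in Ad-RNF128 and 63.7, 42.0 and 45.0% in Ad-GFP. Gbp4 took 10.3, 11.4 and 9.99% of the family's counts in Ad-RNF128 against 1.95, 0.831 and 0.5% in Ad-GFP. Igtp counts were 4.13, 4.14 and 3.97 times those of Irgm in Ad-RNF128 and 1.81, 2.79 and 2.53 times in Ad-GFP, which separates the groups. The ratio of Gbp2 to Igtp counts was 1.54, 1.63 and 1.69 in Ad-RNF128 and 0.60, 1.81 and 1.66 in Ad-GFP, which overlaps between the groups, Ad-GFP replicate 1 being the low value. These are shares and ratios of counts, not of transcripts, because the lengths of the transcripts were not used.

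**Figure D4:**
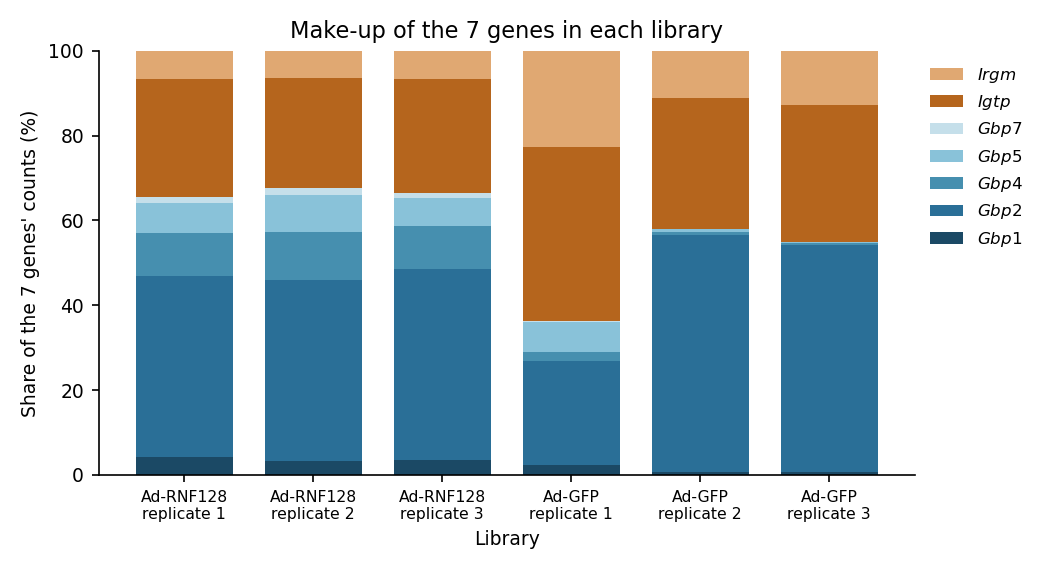
Share of the family's counts, in percent, taken by each of the 7 genes in each library, with the 3 Ad-RNF128 bars left of the 3 Ad-GFP bars. Igtp and Irgm together make up 32.4 to 34.5% in Ad-RNF128 and 42.0 to 63.7% in Ad-GFP, with the highest share in Ad-GFP replicate 1.

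Within Ad-RNF128 the libraries were close. The highest library was 1.11 (Irgm) to 1.55 (Gbp7) times the lowest, and replicate 2 was the highest for all of the genes but Gbp1. Within Ad-GFP, replicate 1 was by CPM below both other libraries for Gbp2, Igtp and Irgm, above both for Gbp1, Gbp5 and Gbp7 and between them for Gbp4. Over all genes tested, 67.7% had their lowest CPM in that library among the Ad-GFP libraries. This order depends on the scaling, since the TMM factor was 0.47 for replicate 1 against 1.1 and 1.08 for the others. Divided by these factors, Igtp, Irgm and Gbp4 were also highest in replicate 1, and Gbp2 stayed lowest there. For all 7 genes Ad-GFP replicate 1 stayed below every Ad-RNF128 library, which held for 60.1% of the 3812 genes that edgeR called higher without it. The mean of Ad-RNF128 was 9.96 (Irgm) to 186 (Gbp4) times the value of Ad-GFP replicate 1 alone.

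The levels over the 6 libraries were followed most closely, by Pearson correlation with the mean of the members' log2(CPM + 0.5), by Sp110, Ifi44l, a gene known only by its identifier ENSRNOG00000069878, Ssu72 and Ifi47, at 0.998 to 1.000 among 10215 other genes with a mean of at least 5 CPM. This is a description of 6 libraries that fall into separate groups, and any gene with that split scores high. Sp110, a nuclear body protein induced by interferon, was at 115, 122 and 106 CPM in Ad-RNF128 and 16.7, 19.8 and 18.6 CPM in Ad-GFP. Ifi44l, an interferon-induced gene, was at 19.5, 23.8 and 18.1 CPM in Ad-RNF128 and 0.0612, 0.111 and 0.0469 CPM in Ad-GFP. Ifi47, another IRG, was at 41.1, 45.3 and 39.7 CPM in Ad-RNF128 and 3.42, 3.27 and 3.23 CPM in Ad-GFP. Ssu72, a phosphatase of RNA polymerase II, had the same split between the groups over a far narrower range, at 35.2, 36.4 and 34.4 CPM in Ad-RNF128 and 22.3, 22.7 and 22.2 CPM in Ad-GFP. Its ratio of mean CPM, Ad-RNF128 over Ad-GFP, was 1.58 both with 6 libraries and without Ad-GFP replicate 1. In edgeR's fits, which scale by TMM, its log2 change was -0.02 with 6 libraries, where Ad-GFP replicate 1 had a factor of 0.47. Without that library it was 0.50 ± 0.08 (edgeR, adjusted p = 6.68e-05). The members' own correlations with their mean were 0.952 (Gbp2) to 0.999 (Irgm).

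The genes that flank the GBP block had far smaller changes than the GBP genes, while 1 flanking gene of each IRG gene had a larger log2 change than its neighbour without Ad-GFP replicate 1. Around the GBP block on chromosome 2, the 6 flanking genes tested had log2 changes of -0.62 to 0.26 without Ad-GFP replicate 1. The 5 GBP genes between them stood at 3.31 to 7.85. Of the 6 flanking genes, 1 was called higher and 2 lower in that fit. Around Irgm, 4 of 7 tested were called higher and 1 lower, and around Igtp, 3 of 8 higher and 1 lower. Over all genes tested in that fit, 28.9% were called higher and 28.0% lower. With 6 libraries the flanking genes of the GBP block ranged over -0.28 to 0.73. Gtf2b and Pkn2, on the Gbp1 side of the block, had log2 changes of -0.01 and -0.03 without Ad-GFP replicate 1. Of the 7 genes tested around Irgm, the change was greatest for Ifi47 (log2 3.54 without Ad-GFP replicate 1), itself an IRG, and the other 6 lay between -0.73 (Sgcd) and 1.06 (Trim7). With 6 libraries the genes around Irgm ranged over -2.30 (Rack1) to 2.98 (Ifi47), and those around Igtp over -1.28 (Mrpl22) to 1.59 (Faxdc2). Around Igtp, Faxdc2 had 27.1, 27.4 and 28.6 CPM in Ad-RNF128 and 3.85, 8.03 and 7.73 CPM in Ad-GFP, and Lypd8, at under 1 CPM in every library, had a log2 change of 4.04 without Ad-GFP replicate 1.

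**Figure D5:**
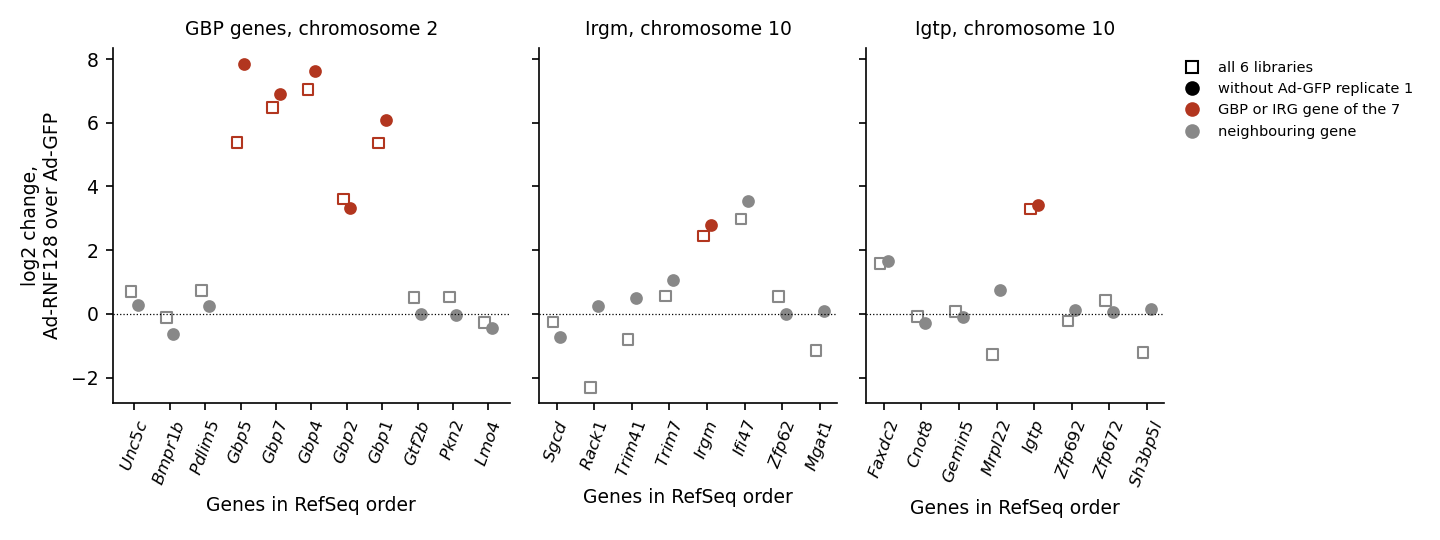
Log2 change, Ad-RNF128 over Ad-GFP, of the 7 genes and their flanking genes in RefSeq chromosome order, with all 6 libraries and without Ad-GFP replicate 1. Genes not tested in both fits are left out, among them Lypd8 beside Igtp, which was tested only without Ad-GFP replicate 1. The GBP block of chromosome 2 stands at 3.31 to 7.85 without Ad-GFP replicate 1, between flanking genes at -0.62 to 0.26.

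Other GTPase genes of the interferon-inducible families and their relatives were mostly higher in Ad-RNF128 too. The list of 18 genes was made by name, and whether interferon induces each of them was not tested. Of these genes, 7 had a row and were tested in edgeR. No gene of the list passed in edgeR with 6 libraries, while 6 passed as higher and 1, Irgq, as lower without Ad-GFP replicate 1, with a median log2 change of 3.54 (2.98 with 6 libraries). Over all genes tested without that library, 28.9% passed as higher and 28.0% as lower, shares to set beside the counts of this list and the next. Irgc, one of the 6, was at 4.91, 4.19 and 4.99 CPM in Ad-RNF128 and 8.99, 2.60 and 3.09 CPM in Ad-GFP, and its log2 change was 0.55 without Ad-GFP replicate 1 and -1.06 with 6 libraries. Mx2, a dynamin-like antiviral GTPase, was at 595, 657 and 561 CPM in Ad-RNF128 and 8.93, 0.775 and 1.22 CPM in Ad-GFP, and its log2 change was 6.18 with 6 libraries and 9.05 ± 0.15 (edgeR, adjusted p = 3.01e-15) without Ad-GFP replicate 1. Mx1, its close relative, was at 129, 148 and 125 CPM in Ad-RNF128 and 0.917, 0.111 and 0.141 CPM in Ad-GFP. Gbp6 was low in both groups, at 1.93, 2.03 and 1.71 CPM in Ad-RNF128 and 0.0612, 0.443 and 0.516 CPM in Ad-GFP. By contrast, the 10 constitutive GTPases of the dynamin superfamily, which shape membranes and are not interferon genes, had a median log2 change of -0.06 without Ad-GFP replicate 1 (-0.34 with 6 libraries), with 2 called higher, 4 lower and 4 not called. Scaled by library totals alone, their medians became 0.10 and 0.43. Dnm1, a neuronal dynamin, was at 22.9, 22.1 and 25.1 CPM in Ad-RNF128 and 28.6, 9.97 and 8.48 CPM in Ad-GFP. Its log2 change was 1.19 without Ad-GFP replicate 1, and with 6 libraries it was -0.43 by TMM and 0.58 scaled by library totals alone. Dnm3 and Dnm1l, the mitochondrial fission dynamin, had log2 changes of -0.77 ± 0.14 and -0.41 ± 0.08 without Ad-GFP replicate 1 (edgeR, adjusted p = 0.000383 and 0.000541), and -0.61 and -0.98 with 6 libraries.

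Among the genes upstream, 8 of the 9 tested genes of the interferon gamma arm were called higher and 1, Jak1, lower without Ad-GFP replicate 1. Over all genes tested in that fit, 28.9% were called higher and 28.0% lower. The list's median log2 change was 0.84, against 0.22 with 6 libraries, where edgeR called none and where the median was -0.20 scaled by median of ratios and 0.87 by library totals alone. Nlrc5, the activator of MHC class I genes, was at 28.5, 28.2 and 24.6 CPM in Ad-RNF128 and 2.32, 1.11 and 1.41 CPM in Ad-GFP. The receptor chain Ifngr2 was at 79.5, 82.8 and 80.2 CPM in Ad-RNF128 and 51.9, 40.7 and 40.3 CPM in Ad-GFP. Its kinase Jak2 was at 87.0, 92.7 and 85.0 CPM in Ad-RNF128 and 1.53, 48.1 and 40.5 CPM in Ad-GFP. Of the 9 genes, 6 were higher in Ad-RNF128 with no overlap between the groups, these 3 among them, against 30.4% of all genes tested. Jak1, Ciita and Socs1 overlapped, Socs1 being at 2.46, 3.73 and 3.27 CPM in Ad-RNF128 and 8.44, 1.44 and 1.45 CPM in Ad-GFP.

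In the type I interferon arm, 7 of 8 genes were called higher without Ad-GFP replicate 1, against 28.9% of all genes tested. Tyk2 was not called. The list's median log2 change was 2.55 in that fit, while with 6 libraries the median was 0.55 and edgeR called none. Ifnb1, the ligand interferon beta, held 31, 57 and 22 counts in Ad-RNF128 and 0 counts in each Ad-GFP library, which is at least 35.2-fold higher when the Ad-GFP group is set to a floor of 3 counts. Irf7, the interferon regulatory factor that drives type I interferon genes, was at 1910, 1853 and 2101 CPM in Ad-RNF128 and 3775, 14.5 and 14.0 CPM in Ad-GFP. Ad-GFP replicate 1 was thus above every Ad-RNF128 library for Irf7, whose log2 change was -0.74 with 6 libraries (0.62 scaled by library totals alone) and 6.95 ± 0.10 (edgeR, adjusted p = 2.02e-15) without Ad-GFP replicate 1. Usp18, which damps type I interferon signalling, was at 457, 510 and 439 CPM in Ad-RNF128 and 399, 1.94 and 1.78 CPM in Ad-GFP. Stat2, a subunit of the factor that binds ISREs, was at 405, 445 and 438 CPM in Ad-RNF128 and 259, 81.2 and 91.2 CPM in Ad-GFP. Irf7, Usp18 and Stat2 were higher in Ad-GFP replicate 1 than in both other Ad-GFP libraries, while the receptor genes Ifnar1 and Ifnar2 were lower there, Ifnar1 at 7.83 CPM against 111 and 111 CPM. In CPM, before TMM scaling, the GTPase genes were in that library at 0.182 (Gbp2) to 1.44 (Gbp1) times the mean of the other Ad-GFP libraries, except Gbp5, at 6.98 times.

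Downstream of the coat, 5 of 9 caspase and inflammasome genes had enough reads to test. Without Ad-GFP replicate 1, 4 passed in edgeR as higher, against 28.9% of all genes tested, and Gsdmd did not pass. The list's median log2 change was 0.96 (1.10 with 6 libraries, none called). Aim2, a DNA sensor, was at 22.4, 22.4 and 16.9 CPM in Ad-RNF128 and rested on 3, 0 and 0 counts in Ad-GFP, a pooled ratio of 382 (counting interval 131 to 1857) with all libraries. Casp4, the caspase that senses lipopolysaccharide, was at 107, 102 and 92.0 CPM in Ad-RNF128 and 1.22, 38.9 and 28.7 CPM in Ad-GFP. Pycard, the inflammasome adaptor, was at 9.36, 8.89 and 8.52 CPM in Ad-RNF128 and 18.7, 3.77 and 4.41 CPM in Ad-GFP, so that the groups overlapped. The 7 tested ubiquitin and receptor genes of coated vacuoles, of 8 listed, had a median log2 change of 1.08 without Ad-GFP replicate 1 (1.01 with 6 libraries). In the fit without that library, 5 were called higher, against the same 28.9% of all genes, and 2 were not called. None was called with 6 libraries. Rnf213, a large ubiquitin ligase that coats bacteria, was at 259, 321 and 264 CPM in Ad-RNF128 and 3.42, 45.0 and 46.2 CPM in Ad-GFP. Trim21, an antibody receptor and ubiquitin ligase, was at 37.5, 40.7 and 32.0 CPM in Ad-RNF128 and 0.245, 4.93 and 3.56 CPM in Ad-GFP. Sqstm1, the autophagy receptor p62, had a log2 change of 1.11 ± 0.07 (edgeR, adjusted p = 6.79e-09) without Ad-GFP replicate 1 and -1.68 with 6 libraries.

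The genes that place and anchor these GTPases had median changes near that of all genes without Ad-GFP replicate 1. For the 11 genes of LC3 conjugation, which directs IRGs and GBPs to vacuoles, the median log2 change was 0.08 without Ad-GFP replicate 1. With 6 libraries it was -0.41 by TMM, 0.30 scaled by library totals alone and -0.77 by median of ratios. In the fit without Ad-GFP replicate 1, 5 were called higher, 1 lower and 5 not called. These counts stand beside 28.9% of all genes called higher and 28.0% called lower in that fit. Gabarapl1, Gabarap and Atg10 led that list by p, with log2 changes of 0.53 ± 0.08, 0.32 ± 0.06 and 0.65 ± 0.14 (edgeR, adjusted p = 4.7e-05, 0.000589 and 0.001), but Gabarapl1 and Gabarap were at -1.54 and -1.69 with 6 libraries. Of the 4 tested enzymes that prenylate and trim proteins such as Gbp2, with a median log2 change of 0.04 (0.24 with 6 libraries), Zmpste24 was called lower without Ad-GFP replicate 1 at -0.42 ± 0.07 (edgeR, adjusted p = 0.000157) but was at 0.13 with 6 libraries. Icmt and Pggt1b were not called, at 0.17 and 0.09 (edgeR, adjusted p = 0.102 and 0.497). With 6 libraries they were at -0.59 and 0.63 by TMM, and at 0.18 and 0.81 with library totals as the only scaling. Scaled by library totals alone, which puts the median log2 change of all genes at 0.17 without Ad-GFP replicate 1, edgeR called 40.7% of genes higher, and 7 of the 7 members.

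Markers of immune cells, which express GBP and IRG genes strongly, were low throughout. The 14 macrophage and leukocyte markers with a row, of 15 listed, summed to 24.3, 23.7 and 23.5 CPM in Ad-RNF128 and 35.7, 18.4 and 17.3 CPM in Ad-GFP, with 3, 4 and 7 of them at 0 in Ad-RNF128 and 3, 5 and 4 in Ad-GFP. Most of that sum was Cd14. Without Ad-GFP replicate 1, edgeR called 2 of the 5 tested markers, Csf1r and Cd68, higher and none lower. Over all genes tested in that fit, 28.9% were called higher and 28.0% lower. With 6 libraries none of the 5 was called. The common leukocyte antigen Ptprc was at 0, 0.0921 and 0.156 CPM in Ad-RNF128 and at 0 in each Ad-GFP library, and the macrophage marker Adgre1 at 0.117, 0.0461 and 0 CPM in Ad-RNF128 and at 0 in each Ad-GFP library. Csf1r, the receptor for macrophage colony-stimulating factor, was at 2.22, 2.67 and 1.97 CPM in Ad-RNF128 and 0.245, 0.388 and 0.469 CPM in Ad-GFP. The 5 T and NK cell markers with a row, of 12 listed, summed to 1.70, 1.43 and 1.92 CPM in Ad-RNF128 and 1.28, 2.10 and 2.48 CPM in Ad-GFP. The 9 endothelial markers summed to 40.3, 39.5 and 39.3 CPM in Ad-RNF128 and 166.5, 25.3 and 26.5 CPM in Ad-GFP, and the 7 smooth muscle markers to 5663, 5090 and 5240 CPM in Ad-RNF128 and 4799, 5251 and 5841 CPM in Ad-GFP. Without Ad-GFP replicate 1, all 3 tested endothelial markers were called higher, with a median log2 change of 0.51. Of 6 tested smooth muscle markers, 3 were called higher and 2 lower, and the 1 tested T and NK cell marker, Cd3e, was called lower. With 6 libraries no endothelial marker was called, and their median was -0.25 by TMM and 0.51 scaled by library totals alone. In bulk RNA, fewer cells of a type and less RNA per cell cannot be told apart, and the part of these cell types in the GTPase differences was not tested. RefSeq lists near copies of the family, among them Igtpl1, Irgm2 and GBP pseudogenes, and reads shared with a near copy could make the counts of the members uncertain.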

How the data were processed

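Each of the 6 libraries came as a table of deposited read counts per gene; per the submitters' processing notes HISAT2, HTSeq 0.13.5 and the build mRatBN7.2 were used. The authors' values are whole counts except 1 value of Ad-GFP replicate 1, so that this library was treated as deposited expected counts and rounded. The sources used here do not give the strand setting. Tables were joined by row over 18077 rows, 106 of which repeat an earlier identifier. CPM was computed from library totals. Genes were tested with edgeR 4.0.16 in R 4.3.3 (filterByExpr, TMM, quasi-likelihood F-test, Benjamini-Hochberg over all genes tested, threshold 0.05), SE being the log2 change over the square root of F. The test scripts were tested on simulated data. Alternatives were DESeq2 1.42.0, limma 3.58.1 (voom), other scalings and filters, a replicate block and each library left out. Mean CPM was compared by exact permutation test, and pooled ratios carry 95% Clopper-Pearson intervals.

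Named were the 7 members, the 3 genes of smallest p without Ad-GFP replicate 1 in each pathway list and the 5 genes most alike over the libraries; other genes were named after their values were seen. Members and lists were chosen with earlier results of these data known. Levels per coding length were planned but not computed, since no lengths were at hand. Promoter sequence and gene order are from RefSeq (GRCr8).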

Additional observations from a re-analysis of the deposited data

How the results depend on the processing

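All 7 members stayed higher in Ad-RNF128 under every alternative run: of 189 alternative values of their log2 changes, 169 kept their side of the threshold, 20 passed it and none fell back or reversed. With 6 libraries, the count of genes called by edgeR was 0, against 8 scaled by library totals alone, 386 with DESeq2 (244 higher, 142 lower) and 14 with limma-voom, and 0 to 7501 with 1 library left out, the 7501 (7 members) being the fit without Ad-GFP replicate 1. The members called were 0, against 3 with library totals, 7 with DESeq2, 3 with limma-voom and 0 to 7 with 1 library left out. Without Ad-GFP replicate 1, calls were 7501, with 6606 (DESeq2) to 7795 (replicate block) under alternatives and 6444 to 7125 with a further library left out, and the members called were 7 in each. Where that library was Ad-GFP replicate 2 or 3 (6699 calls without replicate 3), 1 Ad-GFP library remained, assumed to vary like the Ad-RNF128 libraries. Library totals alone moved that split of higher against lower from 3812 and 3689 to 5367 and 2409. It put the median change over all genes at 0.17 instead of 0.01 on the log2 scale, and with 6 libraries at 0.35 instead of -0.02. The replicate block gave 0 calls and 0 members with 6 libraries. Same-numbered replicates had correlations of -0.167, 0.00993 and -0.121 in their deviations from the group means, so their numbers were not taken to pair samples. The groups also did not overlap for any member in TMM-scaled CPM, an alternative chosen after seeing the data. Low counts in Ad-GFP (1 to 18 per library) limit the ratios of Gbp1, Gbp4, Gbp5 and Gbp7; the cause of the differences between tools was not tested.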
